A study of Mus musculus with 8 samples.

Results

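The 259 regions described here were listed as open chromatin in every library of 3 CD34dim populations of mouse common myeloid progenitors and in neither library of the CD34bright population C2. They were chosen by their F-Seq calls, after merging the overlapping or touching peaks of 8 lists from the peak caller F-Seq into 207739 consensus regions. A region counted as called in a library when at least 1 of its bases lay under a peak of that library. Of the 41454 regions called in all 6 CD34dim libraries, 39641 were also called in both C2 libraries, 1554 in 1 C2 library and 259 in none, so the regions missing from C2 alone made up 0.625% of the 41454. The number depended on single libraries: the same rule gave 582 regions without C2 replicate 1, 1500 without C2 replicate 2, 737 without C18 replicate 1 and 765 without C18 replicate 2. With the 50000 strongest peaks of each list it gave 127, of which 1 was among the 259. The F-Seq calls chose these regions and with them the ranks, so their absence from the C2 lists and their presence in the other 6 are a description with no test.

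Each population was profiled in 2 libraries by ATAC-seq, an assay that tags accessible DNA with adapters carried by a transposase, from 40000 to 50000 cells of primary bone marrow per preparation. All cells were from wild-type C57BL/6 mice, whose age and sex the labels do not give, and all were sorted as KIT+ CD16/32-. C2 cells were CD34bright, CD41+ and CD9+. C13 cells were CD34dim and lacked CD41 and CD9. C10 cells were CD34dim, CD41+ and CD9+ with bright CD48, and C18 cells had the same phenotype with dim CD48. The series text names partly other clusters than the sample titles, and the title names are kept here. Whether both libraries of each population derive from different animals is not in the labels, so p-values measure only the spread between libraries, which may be technical.

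Common myeloid progenitors give rise to the megakaryocyte, erythroid, granulocyte and monocyte lineages, and CD34 is a surface sialomucin of stem and early progenitor cells. Accessible DNA lies mostly at promoters, which are often open in many cell types, and at distal elements such as enhancers, which differ more between cell types and can act on genes far away. In bulk libraries, fewer cells with an open region and a less open region in each cell cannot be told apart.

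Promoters were few among the regions missing from C2. Of the 17492 protein-coding genes with a mapped start, 9 had a promoter window, from 250 bases before to 50 after the start, that overlapped such a region. The windows of 5 of them are shown because they are the places where the missing C2 call met a gene start, and they come from RefSeq for GRCm38.p6, the assembly of mm10. Capitals mark letters of a searched motif, on either strand. The Pde4a window lies at chr9:21165464-21165763 on the plus strand and the Pdx1 window at chr5:147269847-147270146 on the plus strand. The Ttc9b window lies at chr7:27653674-27653973 on the plus strand, the Kcnf1 window at chr12:17176839-17177138 on the minus strand and the Ccdc160 window at chrX:52790950-52791249 on the plus strand.
Pde4a: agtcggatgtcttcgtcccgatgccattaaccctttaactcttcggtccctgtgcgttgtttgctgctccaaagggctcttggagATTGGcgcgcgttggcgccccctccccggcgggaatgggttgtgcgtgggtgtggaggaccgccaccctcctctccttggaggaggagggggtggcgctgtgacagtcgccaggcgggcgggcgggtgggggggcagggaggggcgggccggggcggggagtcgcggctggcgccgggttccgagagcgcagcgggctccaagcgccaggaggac
Pdx1: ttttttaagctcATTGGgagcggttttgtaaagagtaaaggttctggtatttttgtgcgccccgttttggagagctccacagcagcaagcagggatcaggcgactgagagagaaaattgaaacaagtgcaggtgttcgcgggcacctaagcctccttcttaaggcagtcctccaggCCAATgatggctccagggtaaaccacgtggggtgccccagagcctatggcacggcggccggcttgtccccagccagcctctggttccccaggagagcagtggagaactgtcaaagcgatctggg
Ttc9b: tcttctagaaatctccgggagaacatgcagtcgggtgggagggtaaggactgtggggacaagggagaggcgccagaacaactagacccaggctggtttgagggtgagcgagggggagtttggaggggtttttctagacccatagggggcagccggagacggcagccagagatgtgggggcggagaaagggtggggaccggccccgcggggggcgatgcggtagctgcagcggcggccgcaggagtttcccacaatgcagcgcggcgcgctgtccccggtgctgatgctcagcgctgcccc
Kcnf1: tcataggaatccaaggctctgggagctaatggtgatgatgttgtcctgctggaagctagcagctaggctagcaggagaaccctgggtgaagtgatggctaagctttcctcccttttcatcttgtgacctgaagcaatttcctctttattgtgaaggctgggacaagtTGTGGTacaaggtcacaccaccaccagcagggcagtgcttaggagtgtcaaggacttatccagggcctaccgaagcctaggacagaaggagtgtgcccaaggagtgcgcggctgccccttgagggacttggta
Ccdc160: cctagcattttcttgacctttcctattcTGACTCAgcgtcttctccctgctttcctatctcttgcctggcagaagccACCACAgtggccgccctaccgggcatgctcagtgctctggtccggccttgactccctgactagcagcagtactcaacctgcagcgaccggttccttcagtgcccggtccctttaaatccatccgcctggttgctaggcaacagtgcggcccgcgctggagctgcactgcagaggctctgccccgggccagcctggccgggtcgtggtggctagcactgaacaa
The capitals in Pde4a and Pdx1 are the NF-Y letters CCAAT or their reverse complement, those in Kcnf1 the RUNX letters TGTGGT, and those in Ccdc160 the AP-1 and NF-E2 letters TGANTCA and the RUNX letters on the other strand. Ttc9b held none of the searched letters. The Pde4a window was 70.0% G or C with 29 CG dinucleotides, against 53.0% and 3 at Kcnf1. Of the Kcnf1 window 266 bases lay in the region, and the other 4 windows lay in theirs whole.

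Searched on both strands over all 9 windows, CCAAT was found in 2, or 22.2%, against 38.5% of the 11758 windows that overlapped any region called in all 6 CD34dim libraries and 38.2% of all 21238 windows searched. TGTGGT was also found in 2 of the 9, against 12.3% and 14.97%. The GATA letters AGATAA or TGATAA and the letters TGANTCA were each found in 1 of the 9, against 9.24% and 4.55% of the windows that overlapped a region of the 6 libraries and 15.9% and 6.99% of all windows. The letters searched for PU.1 (AGAGGAAG), ETS factors (CCGGAAGT), C/EBP (TTGCNNAA), IRF factors, NRF1 and CTCF were in none of the 9 windows. Among the windows that overlapped a region of the 6 libraries, the shares for these 6 motifs were 4.64%, 8.59%, 7.96%, 3.04%, 10.5% and 0.0510%, in the same order. Over all windows they were 4.44%, 5.15%, 10.2%, 3.34%, 6.38% and 0.0283%. With 9 windows, 1 window is 11.1%, and the shares were not tested. The printed matches do not overlap one another, and each is only a run of letters. None of the 1005 miRNA hairpins of the RefSeq table overlapped a region missing from C2.

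The regions missing from C2 were weak in the CD34dim lists. F-Seq lists 100000 peaks per library in falling order of signal, and the rank of a region in a library is the place of its strongest peak in that list, with 1 the highest signal. The weakest of the 6 ranks of a region had a median of 85438, with a range of 48223 to 99836, against a median of 43933 over all 41454 regions. The weakest rank lay past 90000 in 96 of the 259, or 37.1%, against 6.74% of the 41454. Every list ends at 100000 peaks and not at a level of signal, and the depth of the libraries is unknown. The part of the list ends in the missing C2 calls was not tested.

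The share of regions without a C2 call followed the weakest rank. Of the 11427 regions whose weakest rank was within the first 25000, 0 were missing from both C2 libraries and 5 from 1 of them. Between ranks 25001 and 50000, 1 of 12177 regions was missing from both, or 0.00821%, and 65 were missing from 1. Between 50001 and 75000 it was 48 of 10290, or 0.466%. It was 114 of 4765 between 75001 and 90000, or 2.39%, and 96 of 2795 past 90000, or 3.43%. Regions missing from a single C2 library followed the same order, at 4.55%, 12.2% and 15.5% in the last 3 classes.

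**Figure D1:**
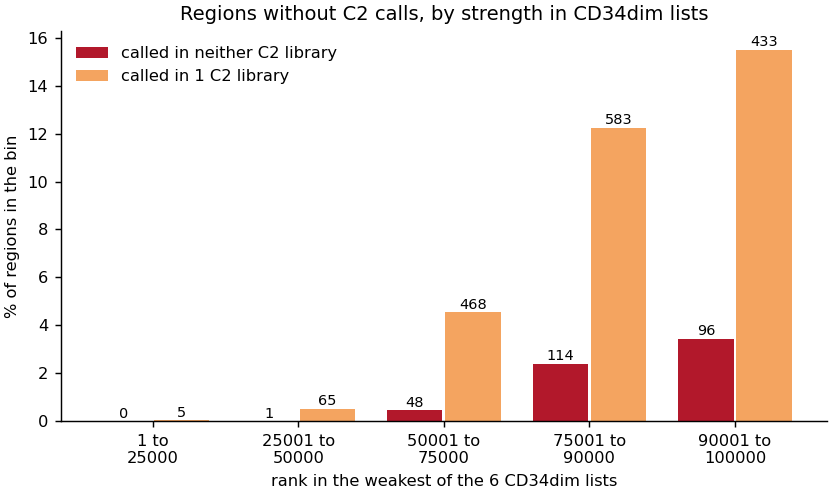
Share of regions called in all 6 CD34dim libraries that were called in neither C2 library and in 1 C2 library (y axis, percent), by the weakest of their 6 CD34dim ranks (x axis, 1 is the highest signal), with the number of regions above each bar. Bars for neither library reach 3.43% past rank 90000 and are 0 within the first 25000.

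In the single libraries the regions ranked highest in C18. Their median rank was 67167 and 68862 in the C13 libraries, 66505 and 68011 in the C10 libraries and 56960 and 57769 in the C18 libraries. Over all 41454 regions the medians were 27370.5 and 27475 in C13, 23446.5 and 23128 in C10, and 24217 and 25038.5 in C18. The best of the 6 ranks was in a C18 library for 145 regions, in a C13 library for 61 and in a C10 library for 53. The covered bases, the bases of a region under F-Seq peaks before any scaling, had the other order. They had a median of 588 and 597 in C13, 561 and 562 in C10, and 403 and 492 in C18. The C18 peaks were narrow at large, with a median width of 491 and 618 bases against 762 to 800 in C13 and C10 and 691 and 721 in C2.

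**Figure D2:**
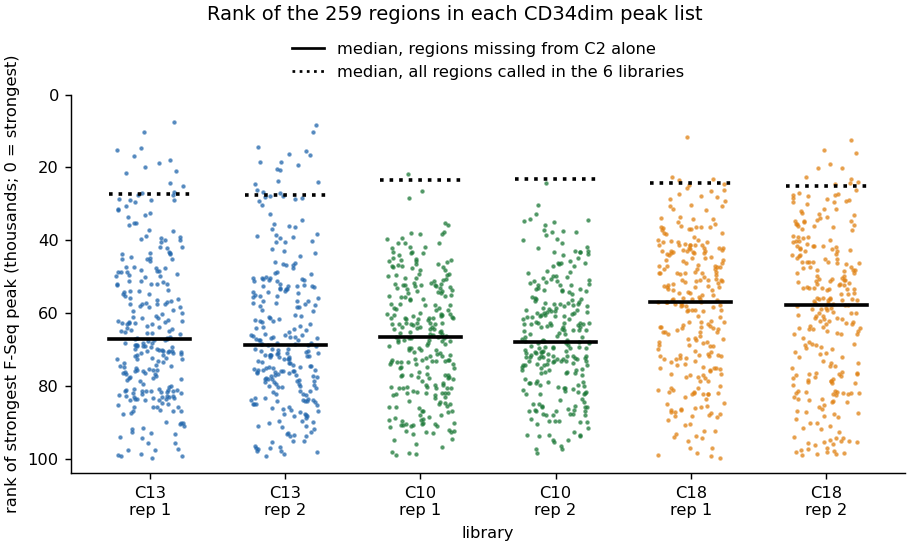
Ranks of the 259 regions missing from C2 (points; y axis, 1 unit is 1000 ranks, strongest at the top) in each CD34dim F-Seq list (x axis), with their median (solid line) and that of all 41454 regions called in the 6 libraries (dotted line). The medians of the 259 lie between 56960 and 68862, against 23128 to 27475 for the dotted lines.

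The regions were also narrow. Their median width was 836 bases, with a range of 433 to 3129, against 1629 over all 41454 regions and 935 over the 1554 regions missing from 1 C2 library. A further set was the 16889 regions called in all 8 libraries whose weakest rank lay in the same range of 48223 to 99836. Only the range is shared: their median weakest rank was 68571, so they were stronger than the regions missing from C2, and their median width was 1348. The differences in width were not tested, because both width and rank come from the lists that chose the regions.

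The nearest C2 peak was mostly some kilobases off. The distance to it had a median of 4945 bases, with a range of 80 to 293572. It was within 200 bases for 5 regions, within 1000 for 34 and within 10 kb for 174. No C2 peak lay within 1000 bases of 225 regions.

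Some of the regions were not empty in C2 by the second caller. HOMER calls peaks of 150 bases and its lists run to different lengths, 171712 and 196264 peaks in C2, 252844 and 249132 in C13, 235812 and 260118 in C10 and 72379 and 83548 in C18. At the 259 regions it listed a peak in 28 (10.8%) and 63 (24.3%) in the C2 libraries, in 248 (95.8%) and 246 (94.98%) in C13, in 240 (92.7%) and 248 (95.8%) in C10, and in 56 (21.6%) and 68 (26.3%) in C18. In the full lists the C2 and C18 shares thus overlapped, while every C13 and C10 library was at 92.7% or more. With the 70000 HOMER peaks of highest score in each list, the C2 shares were 0% and 0% and the C18 shares 20.5% and 15.8%. They were then 21.2% and 17.0% in C13 and 6.56% and 13.1% in C10. The overlap of C2 and C18 thus held for the full lists only. The lists come from the same reads as the F-Seq calls, so this is no independent test.

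The comparison sets were selected for F-Seq calls in C2, from the same reads, so their higher C2 shares follow from the selection. Among the 16889 stronger regions called in all 8 libraries the shares were 90.3% and 94.4% in C2, 96.7% and 96.5% in C13, 96.6% and 98.1% in C10, and 55.9% and 53.7% in C18. Among the 1554 regions missing from 1 C2 library they were 31.6% and 76.4% in C2. No test was run on these shares.

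By region, HOMER listed no C2 peak at 181 of the 259, a peak in 1 C2 library at 65 and in both at 13. In 50 of the 65 the library was C2 replicate 2 and in 15 it was replicate 1. F-Seq showed the same side: of the 1554 regions called in 1 C2 library, 1235 were called in replicate 2 only and 319 in replicate 1 only. Both C13 and both C10 libraries had a HOMER peak at 223 regions, and 145 of these had none in C2. At 156 regions HOMER listed none in C18 and at 107 none in either C2 or C18, and all 6 CD34dim libraries had one at 18, of which 12 had none in C2. At 78 regions, or 30.1%, at least 1 C2 library had a HOMER peak. For regions missing from another population alone, the share with a HOMER peak in a library of that population was 32.5% for C13, 61.8% for C10 and 0.692% for C18.

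**Figure D3:**
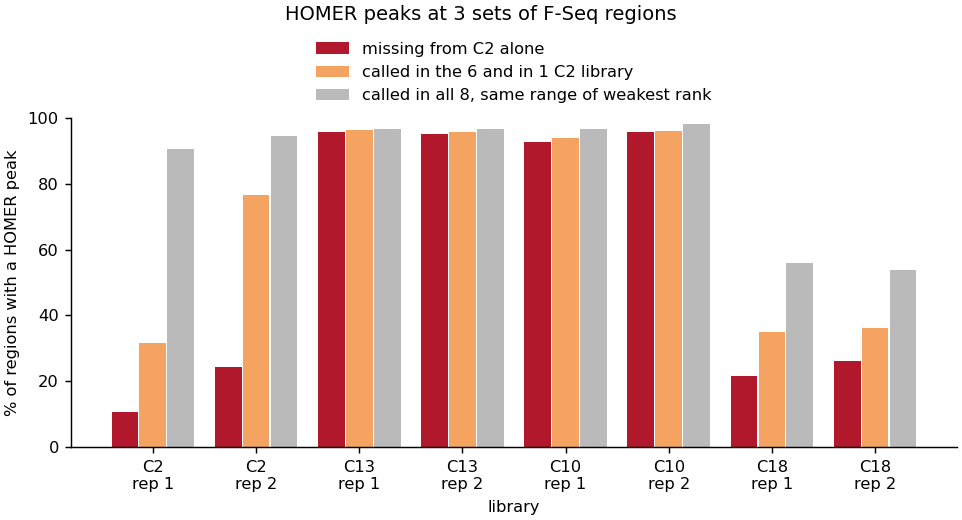
Share of regions with a HOMER peak (y axis, percent) in each of the 8 libraries (x axis), for the 259 regions missing from C2 and 2 comparison sets. At the 259 regions the C2 libraries reach 10.8% and 24.3% and the C18 libraries 21.6% and 26.3%, against 92.7% to 95.8% in C13 and C10. The full lists are used, and they differ in length.

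The regions missing from C2 were fewer than those missing from C13 or C18 alone. By the same rule 2286 regions were missing from C13 alone, 5.35% of the 42733 called in the 6 other libraries. C10 alone lacked 89 of 40253, or 0.221%, and C18 alone 5345 of 54316, or 9.84%. The total length under F-Seq peaks was 88.8 and 90.6 Mb in C2, 97.6 and 100.7 Mb in C13, 94.2 and 99.3 Mb in C10, and 62.5 and 78.9 Mb in C18. The part of these lengths in the 4 counts was not tested.

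Regions near the margin of the rule were seen by rank and by calls in 1 C2 library. The weakest rank lay past 90000 in 96 of the regions missing from C2. A further 1554 regions called in all 6 CD34dim libraries were called in 1 C2 library. Covered bases cannot show how many regions were near the margin. Merging puts each peak whole inside its region, so very small overlaps cannot occur. The regions just inside the rule, with the fewest covered bases in their weakest library, lay at the loci of Khnyn and Sdr39u1, of Golph3, which encodes a Golgi membrane protein, and of Epg5, which acts in autophagy. The Golph3 region, chr15:12310364-12311362, had 645 and 900 covered bases in C13, 518 and 584 in C10, and 251 and 718 in C18. Just outside, the region chr3:56186995-56187560 at the locus of Nbea, which encodes the trafficking protein neurobeachin, had 0 and 242 covered bases in C2, where its peak ranked 93210. It had 516 and 463 in C13, 502 and 556 in C10, and 253 and 339 in C18. In all, 51 regions called in the 6 libraries had some C2 bases but under 300, and the smallest C2 overlap was 242 bases. Over regions called in 1 C2 library, the C2 peak had a median rank of 60419.5.

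Far from mapped gene starts, most regions lay in gene bodies or between genes. Within 1 kb of the start of a protein-coding gene lay 13 of the 246 regions with a measured distance, or 5.28%, against 24.2% over all 41454 regions and 12.1% over the 16889 in the same range of weakest rank, which were stronger. It was 3.997% over regions missing from 1 C2 library, 3.08% over those missing from C13 alone, 13.5% over those missing from C10 alone and 3.50% over those missing from C18 alone. A further 29 lay at 1 to 10 kb, 94 at 10 to 50 kb and 110, or 44.7%, beyond 50 kb, against 30.4% and 34.4% beyond 50 kb in the 41454 and the 16889. The median distance was 40718.5 bases, against 18683 and 25610. Start positions on chromosome 18 are not used here, which leaves out 13 regions. Starts were mapped for 17492 of the 21887 protein-coding genes. Where a nearer start is not mapped, the distance given is too long, in all of these sets. The Slc40a1 region, for example, lay in that gene, which is 18.5 kb long. Its nearest mapped start was that of Wdr75, 120822 bases away. The shares near a start can thus be too low and those beyond 50 kb too high.

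**Figure D4:**
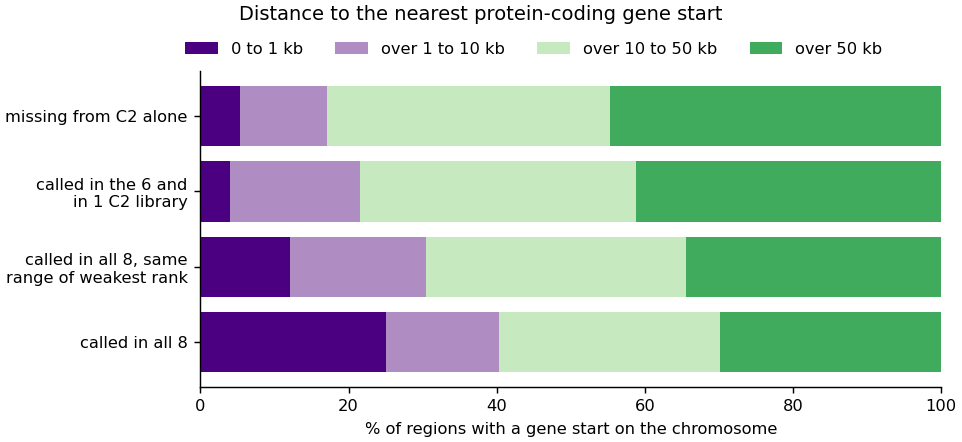
Share of regions (x axis, percent) in 4 classes of distance to the nearest mapped start of a protein-coding gene (colours, in kb), for the regions missing from C2 and 3 comparison sets (bars). Of the regions missing from C2, 5.28% lie within 1 kb and 44.7% beyond 50 kb.

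Gene bodies held 143 of the regions, or 55.2%, against 65.6% of the 41454 and 59.2% of the 16889. Within a locus, a gene body extended by 10 kb on each side, lay 175, or 67.6%, against 77.6% and 74.0%, and 26 of the 175 lay in several loci. Chromosome X held 5 regions, or 1.93%, against 2.07% of the 41454. Chromosomes 1 and 2 each held 23, or 0.804% and 0.701% of their regions called in all 6 CD34dim libraries, against 0.625% of the 41454. The highest share was 0.954%, on chromosome 18. None of these shares was tested.

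The regions were spread over many genes. Of 16104 protein-coding loci with a region called in all 6 CD34dim libraries, 204 held a region missing from C2, or 1.27%. Only Nckap5, Grik4 and Lpp held 2, and none held more. In 191 of the 204 loci a further region was called in both C2 libraries, so that the locus as a whole was seldom without C2 calls. The 204 genes were long, with a median of 70.9 kb, against 22.4 kb for genes with a region called in all 6 libraries. These medians count each gene once, and a longer gene has room for more regions, so they are not like for like. The part of gene length was not tested.

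At Lpp, which encodes a LIM domain protein of cell adhesions, the 2 regions lay 41481 bases apart, with 2 regions called in C2 between them. The first, chr16:24448274-24449080, had 443 and 433 covered bases in C13, 550 and 575 in C10, and 656 and 529 in C18. The second, chr16:24490562-24491327, had 733 and 615 in C13, 385 and 459 in C10, and 288 and 632 in C18. C13 was below C10 and C18 in the first region, and above C10 but overlapping C18 in the second, and neither region had a HOMER peak in C2. The other pair within 50 kb lay on chromosome 3, with 40360 bases between them and 2 C2 regions in the gap. Its first region, chr3:146791931-146792890, lay in Prkacb, which encodes a catalytic subunit of protein kinase A. At Grik4, which encodes a kainate receptor subunit, 2 of 7 regions called in all 6 libraries were missing from C2, and at Nckap5 2 of 6.

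The 10 regions with the best weakest rank had every CD34dim rank within the first 60000, and no other region of the 259 did. All 10 had 0 covered bases in both C2 libraries. The region in Eya2, which encodes a transcriptional coactivator with phosphatase activity, lay at chr2:165603546-165604306 and had 753 and 731 covered bases in C13, 572 and 613 in C10, and 367 and 466 in C18. Its ranks were 27094 and 24469 in C13, 45094 and 35750 in C10, and 37889 and 48223 in C18. The nearest C2 peaks were 29055 and 27532 bases away, and HOMER listed none at the region in C2. By rank C13 stood above the other populations, and by covered bases the 3 populations did not overlap, in the order C13, C10, C18.

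The region in Cep112, which encodes a centrosomal protein, lay at chr11:108751885-108752800 and had 794 and 663 covered bases in C13, 669 and 916 in C10, and 583 and 648 in C18. HOMER listed a peak there in all 6 CD34dim libraries and in neither C2 library, and the nearest C2 F-Seq peaks were 39328 and 54779 bases away. Both C18 libraries had the fewest bases. Among the 10 it was the only one with that HOMER pattern.

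In Rai14, whose product binds actin, the region chr15:10683590-10684416 had 583 and 712 covered bases in C13, 630 and 656 in C10, and 596 and 566 in C18. The values of the populations overlapped, and HOMER listed a peak in C2 replicate 2. The region in Cyp19a1, which encodes aromatase, lay at chr9:54168285-54168878 and had 594 and 551 covered bases in C13, 516 and 491 in C10, and 472 and 348 in C18. C2 replicate 2 had a HOMER peak there too, and the order C13, C10, C18 held without overlap. In Tbc1d4, which encodes a Rab GTPase-activating protein of insulin-stimulated glucose uptake, the region chr14:101575152-101576230 had 807 and 785 in C13, 780 and 1079 in C10, and 349 and 398 in C18. Both C18 libraries were below all of the others, and C2 replicate 2 had a HOMER peak.

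The remaining 5 regions lay in Caap1, which encodes an inhibitor of caspase activity, in Pkd1l1, which encodes a polycystin, near Hnrnpll, a regulator of splicing, and at 2 places with no protein-coding gene within 10 kb, on chromosomes 1 and 18. The chromosome 1 region, chr1:83731519-83732316, ranked 10310 and 14353 in C13, against 45694 and 37781 in C10 and 55765 and 52277 in C18. In the Caap1 region, chr4:94517545-94518084, the ranks were 52228 and 55437 in C13, 21723 and 24363 in C10, and 23579 and 51154 in C18. C13 was the strongest in one and the weakest in the other. HOMER listed no peak in C2 at any of these 5.

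**Figure D5:**
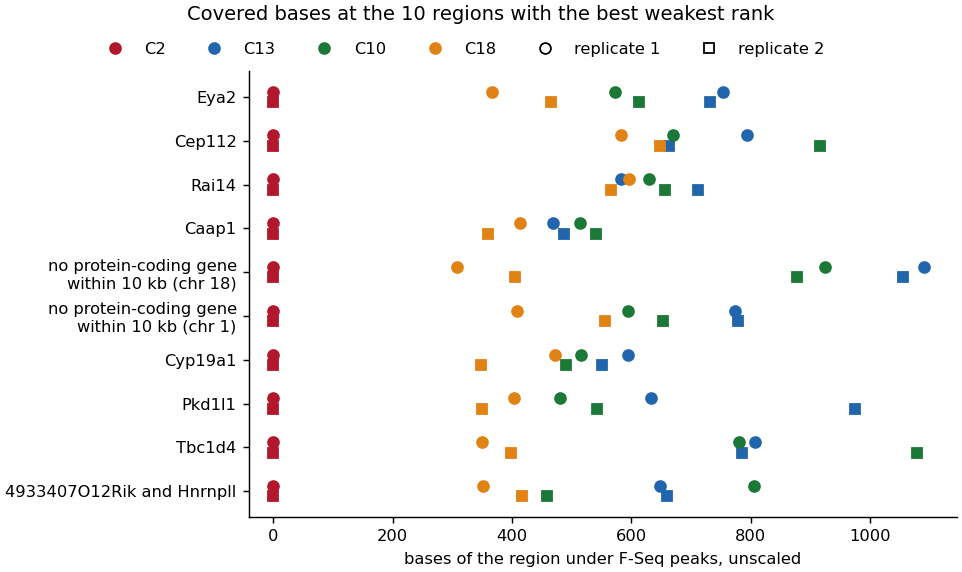
Bases under F-Seq peaks, unscaled (x axis), in each of the 8 libraries at the 10 regions missing from C2 with the best weakest rank (y axis, named by locus). Every C2 point lies at 0, and the C18 points of the Eya2 region, 367 and 466, are the lowest of its CD34dim points.

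A HOMER peak in all 6 CD34dim libraries and in neither C2 library, a group chosen after its values were seen, marked 12 regions. They included regions in Cep112, in Cux1, a homeodomain transcription factor, in Ephb2, an ephrin receptor, and in Gosr2, a Golgi SNARE. The Cux1 region, chr5:136449639-136450518, had 588 and 643 covered bases in C13, 575 and 527 in C10, and 434 and 794 in C18. The nearest C2 F-Seq peaks were 7639 and 7780 bases away. The Ephb2 region, chr4:136742494-136743196, had 637 and 703 in C13, 523 and 569 in C10, and 506 and 528 in C18. At Ephb2 C13 stood above C10 and C18, and at Cux1 the populations overlapped.

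The 12 gene lists, which include housekeeping, stroma and non-haematopoietic genes, held regions missing from C2 at about the share of all protein-coding loci. Among the lists of blood lineages, only the macrophage list held any. Of the 243 genes in 12 lists, 241 matched the annotation, and their loci held 646 regions called in all 6 CD34dim libraries. Of these 3, or 0.464%, were missing from C2, against 0.544% over all protein-coding loci. The lists of stem and multipotent cells (91 regions), megakaryocytes (88), erythroid cells (73), granulocytes and monocytes (61), lymphocytes (57), mast cells, basophils and eosinophils (26), stroma and endothelium (25), haematopoietic transcription factors (176), housekeeping genes (50) and sort markers (18) held 0. The genes of the sort markers all had a region called in all 6 libraries, and 17 of their 18 regions were called in all 8. The macrophage list held 2 of 22 and the non-haematopoietic list 1 of 11. Regions of one list can lie in several loci and lists share genes, and at these sizes the shares are counts only.

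Of the 3, the Mertk region lay in the gene of a receptor tyrosine kinase that acts in the clearance of dying cells. It spanned chr2:128796216-128797023 and had 732 and 775 covered bases in C13, 580 and 692 in C10, and 353 and 562 in C18. C2 had neither an F-Seq nor a HOMER peak there. The region in Slc40a1, the gene of the iron exporter ferroportin, spanned chr1:45915988-45916873 and had 856 and 819 in C13, 841 and 644 in C10, and 358 and 727 in C18, with no HOMER peak in C2. In both regions C18 replicate 1 had the fewest bases of the 6 libraries.

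The Pdx1 region, at the start of the gene of a pancreatic transcription factor and in the window printed above, spanned chr5:147269718-147271708. It had 634 and 724 covered bases in C13, 1889 and 649 in C10, and 1250 and 332 in C18. The replicates of C10 and of C18 lay far apart, and the populations overlapped. HOMER listed a peak in C2 replicate 2.

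At mapped gene starts, 13 regions lay within 1 kb, and 8 overlapped the start itself. In Pde4a, a cAMP phosphodiesterase, the region chr9:21164801-21165855 had 767 and 939 covered bases in C13, 700 and 786 in C10, and 459 and 1046 in C18. In Kcnf1, a potassium channel subunit, the region chr12:17175923-17177104 had 979 and 1124 in C13, 1039 and 824 in C10, and 524 and 829 in C18. It was the only region of that locus called in all 6 CD34dim libraries, and HOMER listed none in C2. The Ccdc160 region, chrX:52790766-52791601, had 575 and 597 in C13, 741 and 705 in C10, and 393 and 631 in C18. C10 was above C13 at Ccdc160 and C13 overlapped C10 at Pde4a and Kcnf1, so no order of the populations was shared. HOMER listed a peak in both C2 libraries at Mtus2, in replicate 2 only at Pdx1 and Ccdc160, and in neither at the other 7 of the 10 best-ranked regions near starts.

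Differences within the CD34dim populations were tested in all 41454 regions at once, with the C2 libraries left out because the rule had used them. Covered bases were multiplied by a factor that gives all 6 libraries the same total covered length, and tested on the log2(bases + 200) scale with limma, and regions with a Benjamini-Hochberg adjusted p under 0.05 were called. The scale understates differences of short overlaps. For CD41 and CD9, the difference was C13 minus the mean of C10 and C18, and for CD48 it was C10 minus C18.

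For C13 minus the mean of C10 and C18, 428 of 41454 regions were called, or 1.03%, 164 higher in C13 (0.396%) and 264 lower (0.637%). Of the 259 regions missing from C2, 2 were called, or 0.772%, 1 higher and 1 lower. By covered bases that share was near the background and is no result about the regions. Other measures gave other counts. By rank, 30 of the 259 were called higher and 9 lower, against 5201 and 7503 of the 41454. The higher share was thus near the background and the lower share below it. By bases under HOMER peaks, 78 of the 259 were called higher and 4 lower, against 1991 and 1981 of the 41454. There the higher share was above the background and the lower share below it. The median log2 difference was -0.04 over the 259 and -0.06 over all, and 114 of the 259 were above 0. For C10 minus C18, 1512 were called, or 3.65%, 915 higher in C10 (2.21%) and 597 lower (1.44%). Of the 259 regions, 9 were called, or 3.47%, 4 higher and 5 lower, near the background by this measure. By rank 7 of the 259 were called higher and 22 lower, against 6928 and 5557 of the 41454, so both shares were below the background. By HOMER bases 135 of the 259 were called higher and 11 lower, against 5128 and 10761 of the 41454. The higher share was above the background and the lower share below it. Unscaled, 25 of the 259 were called higher and 2 lower, against 7179 and 195 of the 41454. There the higher share was below the background and the lower share near it. The C18 HOMER lists were the shortest, and the part of list length in these counts was not tested. The median was -0.13 over the 259 and -0.04 over all, and 82 of the 259 were above 0.

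The number of calls depended on which libraries entered the fit. Without either C13 library or either C10 library both contrasts called 0 regions, with 2953 to 5961 regions at an unadjusted p under 0.05 in the first contrast and 5885 to 7281 in the second. Without either C18 library the first contrast called 5115 or 4418 regions and 26 or 24 of the 259, and the second 8336 or 8361 and 41 or 44 of the 259. Unscaled, the split of the calls changed, to 552 higher and 102 lower in the first contrast and 7179 and 195 in the second. The median of all regions moved to 0.16 and 0.34.

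Il23r, which encodes a subunit of the interleukin-23 receptor, had the region called in both contrasts. It spanned chr6:67475197-67477064 and had 0 and 0 covered bases in C2, 1656 and 1817 in C13, 1141 and 1171 in C10, and 321 and 455 in C18. No 2 populations overlapped. The log2 difference was 0.92 for C13 minus the others (SE 0.126, limma adjusted p = 0.0419) and 0.88 for C10 minus C18 (SE 0.145, limma adjusted p = 0.0368). In ranks C13 was far ahead, at 7611 and 8510, against 48202 and 59820 in C10 and 78738 and 74537 in C18. The first call was lost in 7 of 13 alternatives and the second in 6 of 12. With any 1 library left out the differences stayed at 0.87 to 0.95 and 0.84 to 0.95. As no 2 populations overlapped, leaving out 1 library could not change the direction. Without both C18 libraries the first difference, then C13 minus C10, fell to 0.48 (limma adjusted p = 0.0792).

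Of the 4 regions higher in C10 than in C18, the Ttc9b region, chr7:27653407-27655241, had 1565 and 1744 covered bases in C10 and 346 and 437 in C18. Its log2 difference was 1.31 (SE 0.141, limma adjusted p = 0.0228), and C13 had 1286 in both libraries. By rank the order was the other way, with 86848 and 81018 in C10 against 54456 and 53595 in C18, and the log2 difference in rank was -0.63. The region was thus wide and weak in C10 and narrow and stronger within its list in C18. The region chr3:145170048-145172084, with no protein-coding gene within 10 kb, had 1816 and 1562 in C10 and 307 and 508 in C18 (log2 difference 1.32, SE 0.176, limma adjusted p = 0.0273). In the Dydc2 locus the region chr14:41052418-41053556 had 931 and 1001 in C10 and 336 and 418 in C18, a log2 difference of 0.69.

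Of the 5 regions lower in C10 than in C18, the largest difference, of -0.96, was at chr6:86489776-86490596. It had 357 and 450 covered bases in C10 and 705 and 726 in C18 (SE 0.150, limma adjusted p = 0.0340). The region chr6:85397153-85397688 had 298 and 344 in C10 and 397 and 443 in C18, a log2 difference of -0.56. Neither lay within 10 kb of a protein-coding gene. At the locus of Srpk1, a kinase of splicing factors, but outside the gene body, the region chr17:28625012-28626272 had 590 and 521 in C10 and 824 and 894 in C18, a log2 difference of -0.86. The regions at the loci of Tmem179 and A530016L24Rik and of Maip1 had log2 differences of -0.86 and -0.67. The limma adjusted p of the 9 regions ran from 0.0228 to 0.0497. By adjusted p alone, whatever the direction, each call was lost in 6 to 8 of 12 alternatives. With any 1 library left out the differences were 1.27 to 1.34 for Ttc9b, -1.09 to -0.85 for chr6:86489776-86490596 and -0.96 to -0.76 for Srpk1. The C13 libraries enter these differences only through the scaling. The C10 and C18 libraries did not overlap there, so leaving out 1 could not change the direction. By HOMER bases the regions at Maip1 and chr6:85397153-85397688 were called in the other direction, which is not counted as lost. Each had a log2 difference of 0.67 there (limma adjusted p = 0.00899 and 0.0044).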

How the data were processed

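ATAC-seq of 8 libraries, 2 from each of 4 populations, was used as 16 deposited peak lists called separately per library. The submitters' processing notes name mm10, Bowtie 1.0.0 and HOMER 1.0; the F-Seq version was not given in the sources used here. A signal per peak is held by the deposited F-Seq lists, which end at 100000 peaks. The deposited HOMER lists give unlabelled score columns for 150-base peaks. The authors' signal and score values served here to rank peaks of 1 list. Without read counts, no interval for counting error can be had.

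Lists were merged into consensus regions (overlapping or touching; at least 1 base for a call). Genes and windows are from RefSeq for GRCm38.p6; a locus is a gene body extended by 10 kb. Covered bases of the 41454 regions were scaled by 0.883 to 1.42. Over 6 libraries, limma 3.58.1 (R 4.3.3) fitted 3 group means with eBayes and trend. The fit assumes equal spread in all groups. The procedure was also run on simulated data, drawn with the same spread in all groups, so that run does not test this assumption. Alternatives changed the overlap, list length, caller, libraries, measure, scaling, offset, filter and block.

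Regions are named by fixed rules: the 10 of best weakest rank, up to 5 called per contrast and direction, the 10 genes with most regions, members of gene lists, the 10 best within 1 kb of a start, and 3 just inside and 3 just outside the rule. The members and lists were chosen with earlier results of these data known. Sequences from chromosome 18 and region sequences are not used here. The values of 1 called region are not reported here.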

Additional observations from a re-analysis of the deposited data

How the results depend on the processing

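The number of regions missing from C2 depended on the rule. It stayed at 259 with at least 150 bases under a peak, but that rule could not change it. The 259 regions had at least 241 covered bases in every CD34dim library. The smallest C2 overlap of a region called in all 6 was 242 bases. The number was 242 when at least 50% of the region had to be covered and 225 with no C2 peak within 1000 bases. It was 181 with no HOMER peak in C2 and 176 with the 75000 strongest peaks. It was 127 with the 50000 strongest peaks, 111 with HOMER lists, 18 with a HOMER peak also in all 6 CD34dim libraries, 12 with those and none in C2 (added after seeing the data) and 4015 without both C18 libraries. Leaving out each library gave 294 to 1500 regions, with 582 and 1500 without C2 replicate 1 and replicate 2 and 737 and 765 without C18 replicate 1 and replicate 2. Of the 259, 1 was among the 127, 49 among the 176 and 11 among the 111, or 18.9% of the 259 and 27.8% of the 176 in the second case. The share with a HOMER peak in C2 was 30.1%, 32.0% within 500 bases, and 0% among the 70000 HOMER peaks of highest score, taken by score because several lists are ordered by position. The share within 1 kb of a start of 5.28% became 7.32% within 2500 bases and 8.13% with all RefSeq genes.

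For C13 minus the mean of C10 and C18, calls over all regions and over the 259 were 12704 and 39 by rank, 3972 and 82 by HOMER bases, 654 and 6 unscaled, 38803 and 15 over the 116063 regions called in at least 2 libraries, and 995 and 7 without both C18 libraries. Leaving out each library gave 0 to 5115 and 0 to 26. For C10 minus C18 they were 12485 and 29 by rank, 15889 and 146 by HOMER bases, 7374 and 27 unscaled and 25087 and 11 over the larger set. Leaving out each library gave 0 to 8361 and 0 to 44. With a lone library, its spread is assumed to be that of the other groups. The set of 116063 regions admits those with peaks in both libraries of the same population and in no other library. For such regions the filter itself sets the difference, so the 38803 and 25087 calls are no test. The cause of these shifts was not tested, apart from the smaller or larger set of regions tested.

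With the replicate number as a block, the first contrast called 0 regions and 0 of the 259 (limma, 7059 at an unadjusted p under 0.05) and the second 2 and 0. The numbers were not taken to pair the libraries, since deviations of same-numbered libraries correlated at only 0.05, 0.02 and 0.01.

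By bases under HOMER peaks the C10 minus C18 difference reversed to 0.67 at Maip1, 0.15 at Srpk1, 0.67 at chr6:85397153-85397688 and -0.20 at Ttc9b, and by rank it reversed to -0.63 at Ttc9b. The reversed differences at Maip1 and chr6:85397153-85397688 were themselves called (limma adjusted p = 0.00899 and 0.0044). Of 134 alternatives for the called regions, 56 kept the call, 73 lost it and 5 reversed.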
